A study of Mus musculus with 4 samples.

Results

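The 40 genes described here encode proteins that act in G2 and mitosis. They were taken by name from a list of mitotic genes, and all 40 were among the 23240 genes of the expression table. All 40 also passed the filter on low values (a mean of at least 1 RPKM), which left 9595 genes for testing. RNA had been sequenced from mouse bone marrow cells, labelled as an acute myeloid leukaemia (AML) with RUNX1 and an internal tandem duplication of the receptor FLT3 (FLT3-ITD), and sorted as GFP+ BFP+ CD11b- Gr1-. There were 4 libraries: an ethanol (EtOH) and a 4OHT culture of cells with the genotype B6.Runx1-delta/delta, numbered replicate 1, and the same 2 cultures of cells with the genotype B6.Runx1-delta/+, numbered replicate 2. Every culture had lasted 22 h with FLT3L, SCF, IL3 and IL11. 4OHT (4-hydroxytamoxifen, a ligand commonly used to switch on proteins fused to a modified oestrogen receptor) was given at 200 nM, and EtOH, its solvent, at the same volume. The labels do not name the protein that 4OHT acts on here, nor the number or age of the mice, nor the constructs behind GFP and BFP. So an arm consists of 1 library from either genotype. With genotype as a term, 1 residual degree of freedom is left, which is the difference between the genotypes in their change with 4OHT. A p-value sets the change against that difference, combined with a prior from all genes, and not against replicates of a condition. A gene whose change differed between the genotypes is therefore less easily called.

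The libraries held 33.7 to 39.4 M mapped reads, as recovered from the steps between RPKM values. The smallest whole read numbers that fit these values ran from 719 to 87678 over the members and libraries. For most members larger numbers fitted too. The lowest number gives a counting error of 3.73% (1 over the root of the reads). Markers of other cells were checked in the same table. Summed RPKM of 6 T and NK cell genes was at most 0.232, with Cd3e at 0, and Itgam, which encodes CD11b, was at most 0.358 RPKM. Not all myeloid markers were that low. The neutrophil marker S100a8 was at 30.5 and 29.7 RPKM in EtOH and 4OHT of delta/delta cells and at 9.46 and 9.39 in delta/+ cells. S100a9 lay between 5.47 and 12.4 RPKM, while Ltf, Camp and Ngp were at most 0.487, 1.55 and 0.721. The monocyte marker Ly6c2 reached 7.48 RPKM and the endothelial marker Pecam1 12.0. Of the progenitor markers, Kit was at most 1.61 RPKM, Cd34 at most 0.395 and Mpo at most 0.556, while Flt3 lay between 12.6 and 46.3 RPKM. Of the 8 progenitor markers 3 passed the filter on low values and were tested, and of these only Myb was called with 4OHT in limma. Myb rose from 17.0 to 99.2 RPKM in delta/delta and from 37.5 to 84.5 in delta/+ cells. Red cell genes were abundant. The 18 erythroid markers in the table made up 13.0% and 8.004% of summed RPKM in the EtOH libraries of Runx1 delta/delta and delta/+, and 1.03% and 0.763% in the 4OHT libraries. With 4OHT, 17 of these 18 fell in limma, and none was at 0 in all libraries. Summed RPKM of 5 mast cell and basophil markers was 11.0 and 143 in EtOH and 4OHT of delta/delta cells and 12.8 and 27.9 in delta/+ cells, and 3 of the 5 rose.

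Cells enter mitosis when CDK1, bound to cyclin A or cyclin B and freed of inhibitory phosphate by CDC25 phosphatases, phosphorylates its targets together with the Polo and Aurora kinases. Kinetochores then attach chromosomes to the spindle, the spindle checkpoint holds the anaphase-promoting complex (APC/C) in check until attachment is complete, and APC/C with its activator CDC20 destroys cyclin B and securin so that sister chromatids part and the cell divides. The transcripts of most of these proteins rise in G2 and fall after division, under MuvB complexes with B-MYB and FOXM1, and in blood-forming tissue they are high in dividing progenitors, erythroblasts included.

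Promoters of such genes are known for a cell cycle genes homology region (CHR), which MuvB complexes bind, and for CCAAT boxes, which NF-Y binds. RefSeq promoter windows (GRCm38.p6, 250 bases before to 50 after the annotated start) were held for 34 members, as 36 windows. Both strands were searched for the CHR letters TTTGAA, the CCAAT box letters CCAAT and the E2F-like letters GCGGGAA, and the first of these can share 1 base with the second. CHR letters stood in 26 of 36 windows (72.2%), against 17.9% of all 32851 windows of the same length. In 24 of 36 (66.7%) they began within 50 bases of the annotated start, against 4.94% of all windows. CCAAT stood in 28 of 36 windows (77.8%) against 37.4%, and at least 2 copies in 20 of 36 (55.6%) against 11.7%. Both motifs together were in 23 windows (63.9%) against 6.95% of all. GCGGGAA was in 0 of 36 windows and in 4.60% of all. Among 20 windows of S phase genes, CHR letters stood in 3 (15%), CCAAT in 13 (65%) and GCGGGAA in 8 (40%). CHR letters were also frequent in windows of condensin genes (62.5%), of further spindle and cytokinesis genes (61.5%) and of further kinetochore genes (37.9%). Such matches describe the letters only, not binding.

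For 7 members the 130 bases before the annotated start are given from 5′ to 3′ on the gene's own strand, with CHR and CCAAT letters of either strand in capitals (RefSeq, GRCm38.p6). Mki67 (chr7:135716380-135716509, minus strand), Top2a (chr11:99024190-99024319, minus strand), Ube2c (chr2:164769799-164769928, plus strand) and Cdc25b (chr2:131186818-131186947, plus strand) are shown because they were called lower with 4OHT. Cdk1 (chr10:69352913-69353042, minus strand) and Cdc20 (chr4:118437344-118437473, minus strand) are shown as central mitotic genes that were not called, and Kif11 (chr19:37376252-37376381, plus strand) as one whose change differed in size between the genotypes.
Mki67: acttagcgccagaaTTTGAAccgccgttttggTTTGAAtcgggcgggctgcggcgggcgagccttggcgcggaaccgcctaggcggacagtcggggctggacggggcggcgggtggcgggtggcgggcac
Top2a: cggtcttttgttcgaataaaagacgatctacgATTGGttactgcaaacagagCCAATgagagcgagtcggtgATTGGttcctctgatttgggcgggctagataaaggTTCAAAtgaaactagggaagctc
Ube2c: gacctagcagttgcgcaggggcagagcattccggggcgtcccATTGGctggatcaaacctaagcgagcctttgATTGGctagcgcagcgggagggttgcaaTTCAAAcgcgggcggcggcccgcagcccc
Cdc25b: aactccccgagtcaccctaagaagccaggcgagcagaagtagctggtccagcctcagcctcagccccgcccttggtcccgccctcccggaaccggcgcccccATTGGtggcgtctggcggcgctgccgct
Cdk1: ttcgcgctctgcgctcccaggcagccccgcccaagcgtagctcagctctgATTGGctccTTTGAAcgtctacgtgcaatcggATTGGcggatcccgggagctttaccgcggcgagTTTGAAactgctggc
Cdc20: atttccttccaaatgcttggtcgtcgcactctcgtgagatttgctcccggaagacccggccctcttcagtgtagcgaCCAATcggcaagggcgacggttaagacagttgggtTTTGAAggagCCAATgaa
Kif11: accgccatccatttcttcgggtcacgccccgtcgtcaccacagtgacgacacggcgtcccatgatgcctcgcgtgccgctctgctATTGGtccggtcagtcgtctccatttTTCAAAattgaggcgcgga
Cdc25b holds a single CCAAT box, at position -28, and no CHR letters in its whole window. Over their whole windows, both motifs are held by the called genes Mki67, Top2a and Ube2c, and also by Cdk1 and Cdc20, which were not called. Kif11 holds CHR letters at -19 and a CCAAT box at -45, counted from the annotated start.

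**Figure D1:**
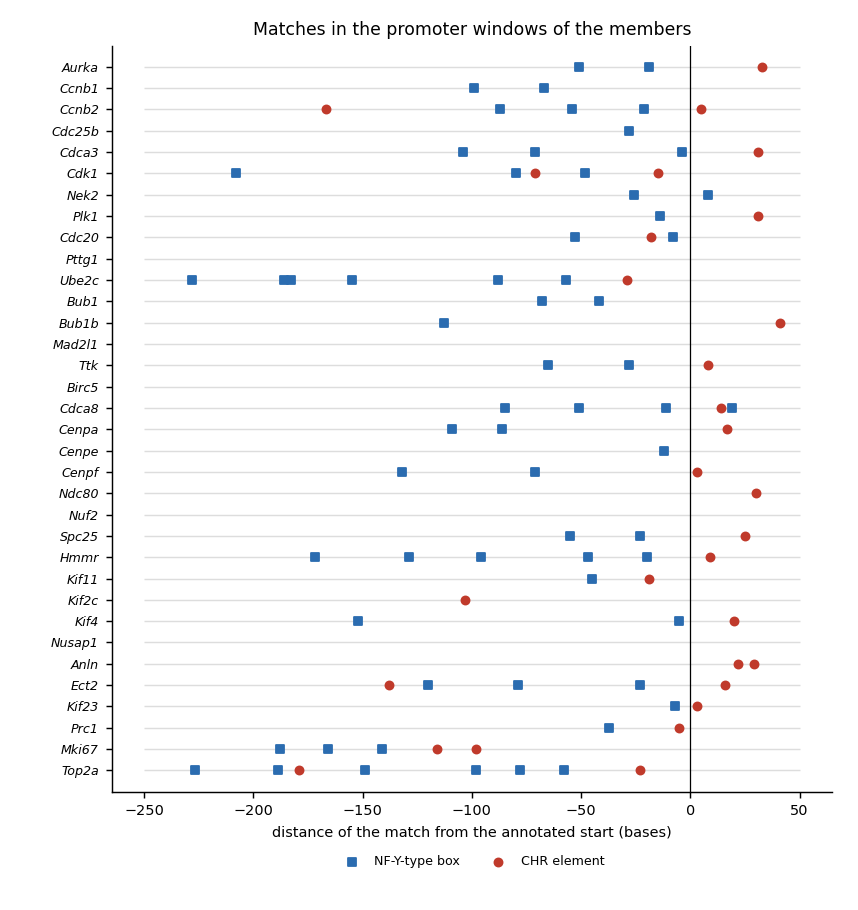
Positions of CHR letters (red circles) and CCAAT boxes (NF-Y-type boxes, blue squares) in the promoter windows of 34 members, by distance in bases from the annotated start (vertical line), with 1 window per gene. CHR letters gather around the start and CCAAT boxes mostly lie upstream of it; Birc5, Mad2l1, Nuf2, Nusap1 and Pttg1 hold neither.

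With 4OHT the G2 and mitosis genes were lower on balance. In limma, with genotype as a term and Benjamini-Hochberg adjustment over all genes, 8 of 40 members fell and 0 rose, where 10.2% of all tested genes fell and 22.2% rose. No member could be higher at an unadjusted p under 0.05, since no member had a fitted change above 0. The fallen genes were Cdc25b, Mki67, Nusap1, Ube2c, Top2a, Ndc80, Cdca3 and Cdca8. The fitted change was below 0 for all 40 members and for 35.9% of all genes, and its median was -0.31 over the members and 0.16 over all genes, on the log2(RPKM + 1) scale. Summed over the members, RPKM was 3529 and 2137 in the EtOH and 4OHT libraries of delta/delta cells, and 2644 and 2196 in those of delta/+ cells, or 0.722%, 0.466%, 0.622% and 0.535% of all RPKM in the same order. In a bulk sample, fewer cycling cells and less of these RNAs per cell cannot be told apart. Summed RPKM of the erythroid markers moved the same way, at 63357, 4719, 34028 and 3131, and its part in the members' change was not tested.

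Scaling and model mattered for how many members were called. Median-ratio scaling, which centres all genes near 0 (median -0.02), gave 12 falls and 0 rises among the members (13.8% and 12.7% of all genes) and a median of -0.51. Removing a trend with GC content and transcript length gave 15 falls and 0 rises (13.6% and 15.6% of all genes) and a median of -0.44. All 8 genes called by default were called in both, and all 40 fitted changes stayed below 0 in both, against 51.8% and 47.6% of all genes. Without genotype as a term 0 members were called, where 1.21% of all genes fell and 1.22% rose, and 4 members had an unadjusted p under 0.05. With 3 libraries a fit cannot hold genotype and keep a residual, so fits without 1 library hold treatment alone, and like that fit on all 4 they called few members, 0 or 1 (Cdc25b without the delta/+ EtOH library).

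**Figure D2:**
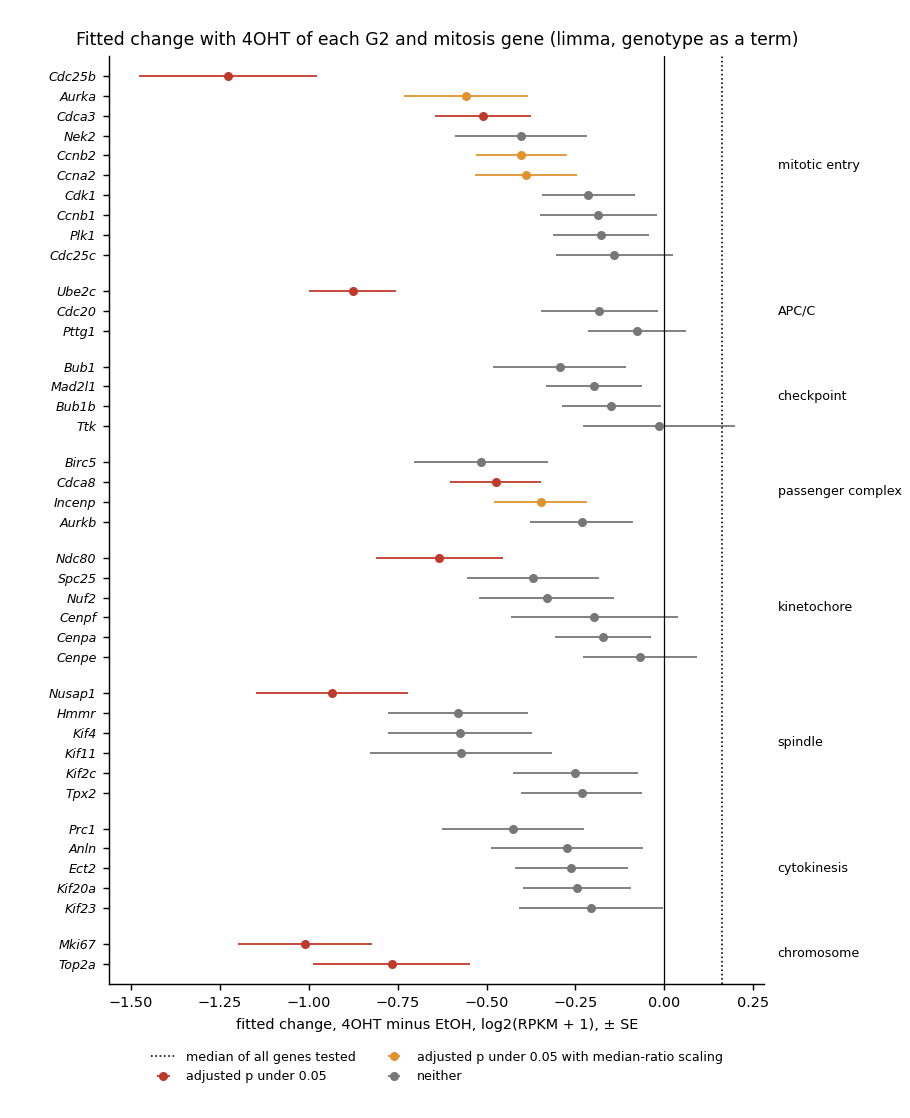
Fitted change with 4OHT of each of the 40 members, on the log2(RPKM + 1) scale with its standard error (limma, 4 libraries), grouped by role. Red marks the 8 members with an adjusted p under 0.05, and orange those called after median-ratio scaling but not by default. The dotted line is the median of all tested genes (0.16). All 40 points lie below 0, from Cdc25b at -1.23 to Ttk at -0.02.

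Both mitotic chromosome proteins fell. Mki67 encodes Ki-67, which coats mitotic chromosomes and is the usual marker of cycling cells. Its level was 252 RPKM in EtOH and 98.2 in 4OHT in delta/delta cells, and 253 and 158 in delta/+ cells. The EtOH libraries thus matched each other closely and both lay above the 4OHT libraries. The fitted change was -1.01 ± 0.19 (SE, adjusted p = 0.0154 in limma). Top2a encodes topoisomerase II alpha, which untangles sister chromatids. It stood at 187 and 81.1 RPKM in EtOH and 4OHT of delta/delta cells and at 155 and 122 in delta/+ cells. The groups did not overlap, and the fitted change of -0.77 ± 0.22 had an adjusted p of 0.0490, just past the threshold.

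Of 10 genes of mitotic entry, 2 fell by default and 5 after median-ratio scaling. Cdc25b, the phosphatase that starts CDK1 activation at the centrosome, had the largest fitted change of the 40 members, -1.23 ± 0.25 (limma adjusted p = 0.0195). It was at 227 RPKM in EtOH and 67.7 in 4OHT in delta/delta cells, and at 102 and 61.3 in delta/+ cells, without overlap. The starting level was thus 2.23-fold higher in the delta/delta EtOH library than in the delta/+ one, while both 4OHT libraries ended close together. Cdca3, an F-box-like protein that helps degrade the CDK1 inhibitor WEE1, was at 284 and 179 RPKM in delta/delta cells and 182 and 142 in delta/+ cells. Its groups did not overlap, although the delta/delta 4OHT library lay just below the delta/+ EtOH library, with a fitted change of -0.51 ± 0.13 (adjusted p = 0.0397).

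The other 3 entry genes were called after median-ratio scaling and in the fit corrected for GC and length, but not by default. Aurka, the Aurora kinase of centrosomes and spindle poles, was at 130 and 72.2 RPKM in EtOH and 4OHT of delta/delta cells and at 74.9 and 61.5 in delta/+ cells (limma adjusted p = 0.0609, and 0.0400 after scaling). The cyclin A2 gene Ccna2 was at 233, 156, 152 and 132 RPKM in the same order (0.0929 and 0.0451). For Ccnb2, encoding cyclin B2, the levels were 169, 120, 124 and 99.3 RPKM (0.0630 and 0.0289). In all 3 the delta/delta EtOH library was the highest and the delta/+ 4OHT library the lowest. Only Ccna2 had overlapping groups.

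The catalytic core of mitotic entry was not called under either scaling. Cdk1 was at 58.6 and 50.6 RPKM in EtOH and 4OHT of delta/delta cells and at 46.5 and 39.8 in delta/+ cells (fitted change -0.21 ± 0.13, limma adjusted p = 0.259). This was nearly the same ratio in both genotypes, 1.16-fold and 1.17-fold lower with 4OHT. Ccnb1, encoding cyclin B1, its main partner, was at 63.8 and 47.2 RPKM in delta/delta cells but at 65.99 and 68.6 in delta/+ cells (-0.19 ± 0.17, adjusted p = 0.425). Plk1, the Polo-like kinase, was at 126, 102, 91.2 and 87.7 RPKM (-0.18 ± 0.14, adjusted p = 0.356). For both genes the 4OHT value of one genotype lay inside or above the range of the EtOH libraries. Nek2, a centrosome kinase, and Cdc25c, a second CDK1 phosphatase, were not called (adjusted p = 0.152 and 0.540). The intervals of these genes are wide beside their fitted changes, so missing the threshold does not show that they were steady.

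Among the APC/C genes, Ube2c fell and Cdc20 and Pttg1 were not called. Ube2c, the E2 enzyme that hands ubiquitin to APC/C substrates, had the smallest adjusted p of the 40 members. Its level was 384 RPKM in EtOH and 199 in 4OHT in delta/delta cells, and 185 and 106 in delta/+ cells. The 4OHT library of delta/delta cells thus lay above the EtOH library of delta/+ cells, but within each genotype the ratio was alike, 1.93-fold and 1.75-fold lower with 4OHT. The fitted change was -0.88 ± 0.12 (limma adjusted p = 0.00778). Cdc20, the mitotic activator of APC/C, was at 96.9 and 72.0 RPKM in delta/delta cells and 76.9 and 80.2 in delta/+ cells, in opposite directions (-0.18 ± 0.16, adjusted p = 0.428). Pttg1, which encodes securin, was nearly level, at 25.3 RPKM in both delta/delta libraries and at 24.5 and 21.9 in delta/+ cells.

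None of the 4 spindle checkpoint genes was called in limma with either scaling. Mad2l1, which blocks CDC20, was at 71.8 and 58.4 RPKM in delta/delta cells and 70.1 and 65.3 in delta/+ cells, so that the groups did not overlap, but its adjusted p was 0.307. Bub1b, encoding BUBR1, was at 75.0 and 62.3 RPKM in delta/delta cells and 49.2 and 48.0 in delta/+ cells (adjusted p = 0.444). The kinase genes Bub1 and Ttk were lower with 4OHT in delta/delta cells, 1.59-fold and 1.36-fold, and not in delta/+ cells. For Ttk the delta/+ value was higher with 4OHT, 12.5 against 16.4 RPKM, and its fitted change of -0.02 was the closest to 0 of the 40 members.

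The chromosomal passenger complex, which corrects faulty attachments, consists of the Aurora B kinase and 3 partners, INCENP, survivin and borealin. All 4 genes were lower with 4OHT in both genotypes, with 1 called by default and 2 after median-ratio scaling. Cdca8, encoding borealin, was at 150 and 103 RPKM in EtOH and 4OHT of delta/delta cells and 112 and 84.1 in delta/+ cells, without overlap (-0.47 ± 0.13, limma adjusted p = 0.0413). Incenp was at 131, 96.7, 102 and 84.8 RPKM in the same order, also without overlap (adjusted p = 0.0942, and 0.0371 after scaling). Aurkb was at 41.8, 32.1, 40.7 and 38.0 RPKM, again without overlap, but not called (adjusted p = 0.266). Birc5, encoding survivin, was 1.80-fold lower in delta/delta and 1.15-fold lower in delta/+ cells (adjusted p = 0.0885). It was called only in the fit corrected for GC and length (adjusted p = 0.0436).

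Of 6 kinetochore and centromere genes, 1 fell. Ndc80 encodes the microtubule-binding subunit of the kinetochore. It was at 17.5 RPKM in EtOH and 8.89 in 4OHT of delta/delta cells, and at 17.7 and 13.6 in delta/+ cells. The EtOH libraries were alike and both lay above the 4OHT ones, with a fitted change of -0.63 ± 0.18 (limma adjusted p = 0.0471). Nuf2 and Spc25, whose products are subunits of the same NDC80 complex, were 1.59-fold and 1.62-fold lower in delta/delta cells but only 1.01-fold and 1.05-fold lower in delta/+ cells, and were not called (adjusted p = 0.234 and 0.181). Cenpa, the centromeric histone H3 variant, was at 49.2, 41.6, 45.1 and 41.7 RPKM, a small difference without overlap (adjusted p = 0.363). Cenpe and Cenpf, encoding a kinetochore motor and a large kinetochore protein, went opposite ways in the 2 genotypes and were not called (adjusted p = 0.769 and 0.550).

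Among 6 spindle genes Nusap1 was the one called by default. Its product bundles spindle microtubules near chromosomes. It was at 60.4 RPKM in EtOH and 23.5 in 4OHT of delta/delta cells, and at 58.9 and 40.1 in delta/+ cells. As for Mki67, the EtOH libraries nearly coincided, and the change was -0.93 ± 0.21 (limma adjusted p = 0.0269). The role's median change, -0.57, was nevertheless the lowest after that of the chromosome proteins (-0.89). Kif11, the motor that pushes spindle poles apart, was at 46.3 and 21.3 RPKM in delta/delta cells and 48.3 and 46.1 in delta/+ cells. That is 2.17-fold lower in one genotype and 1.05-fold lower in the other, and the fitted change of -0.57 ± 0.26 was not called (adjusted p = 0.143). Kif4, a chromosome-arm motor, and Hmmr, a spindle pole protein, were 2.001-fold and 1.96-fold lower in delta/delta cells and 1.18-fold and 1.19-fold lower in delta/+ cells. Both were called only in the fit corrected for GC and length (limma adjusted p = 0.0494 and 0.0443). Kif2c and Tpx2, a microtubule-depolymerising motor and an activator of Aurora A, were 1.45-fold and 1.41-fold lower in delta/delta cells, were not lower in delta/+ cells, and were not called (adjusted p = 0.322 and 0.336).

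None of the 5 genes of the central spindle and cytokinesis was called. Prc1, which bundles the central spindle, was at 86.2 and 49.7 RPKM in delta/delta cells and 66.7 and 63.6 in delta/+ cells (adjusted p = 0.160). The other 4 genes were also lower in delta/delta cells. Kif20a, Kif23, Anln and Ect2, which encode 2 central spindle motors, the ring scaffold anillin and the activator of RhoA, were 1.35-fold to 1.68-fold lower there. In delta/+ cells Kif20a and Ect2 were 1.05-fold lower and Kif23 and Anln were 1.11-fold and 1.08-fold higher.

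**Figure D3:**
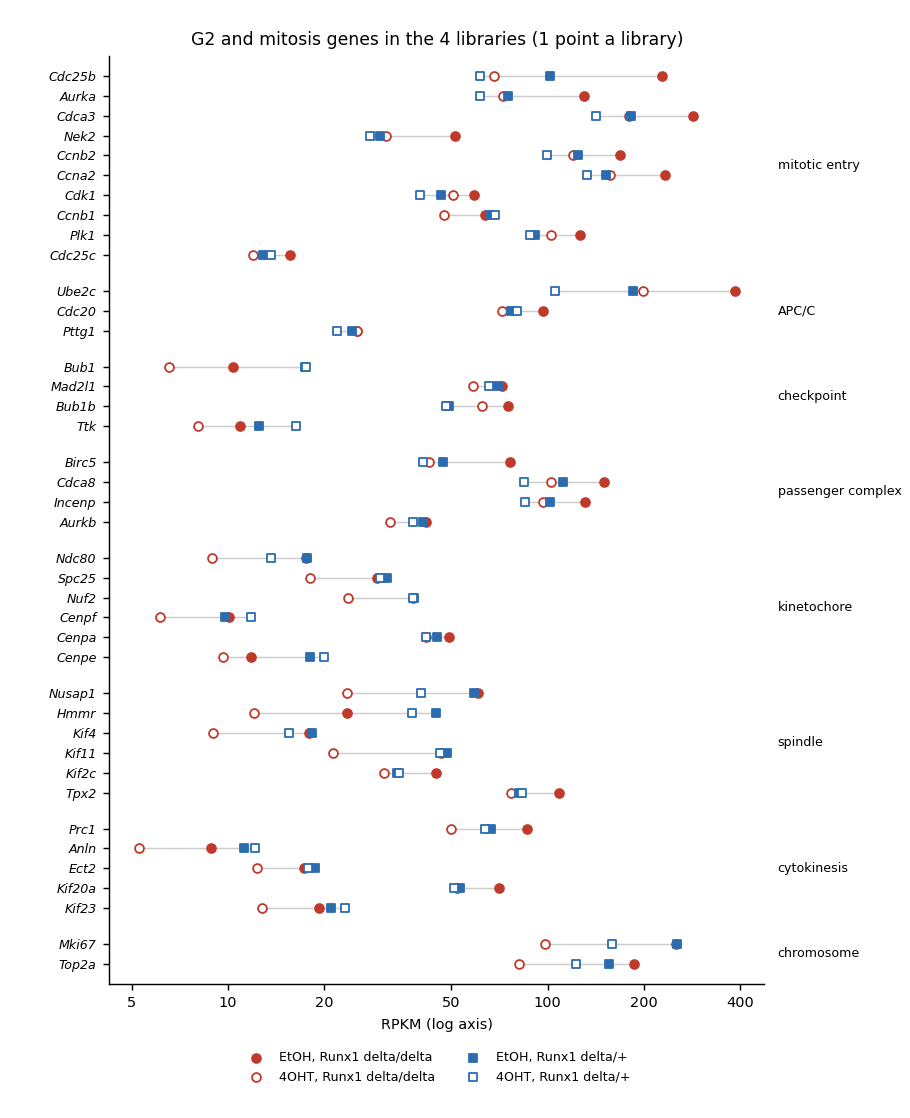
RPKM of the 40 members in the 4 libraries (log axis), 1 point per library: red for Runx1 delta/delta, blue for delta/+, filled for EtOH and open for 4OHT. In 24 members the rightmost point is the filled red one (EtOH, delta/delta) and in 25 the leftmost is the open red one (4OHT, delta/delta).

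The change with 4OHT, taken with its sign, was lower in Runx1 delta/delta than in delta/+ cells for 38 of 40 members. Of all tested genes 45.6% had the lower change in delta/delta cells. With 1 library per genotype and arm a test of this difference has no degrees of freedom left, so it was not tested. The limma fit counts it as residual spread instead. In delta/delta cells 39 members were lower with 4OHT, and 20 by at least 1.5-fold (13.2% of all genes), with a median change of -0.56 against 0.17 over all genes. In delta/+ cells 29 were lower and 11 higher, and 3 were lower by at least 1.5-fold (11.6% of all genes), with a median of -0.10 against 0.15. These 3 were Cdc25b, Ube2c and Mki67. No member was at least 1.5-fold higher in either genotype, where 28.2% and 21.1% of all genes were. The 8 called members had a median change of -1.07 in delta/delta and -0.47 in delta/+ cells, and the other 32 of -0.49 and -0.07.

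By rank, the delta/delta EtOH library was the highest of the 4 for 24 members (20.6% of all genes) and the lowest for 0 (39.5%). The delta/delta 4OHT library was the lowest for 25 (18.7%) and the highest for 1, Pttg1 (31.2%). In delta/+ cells, EtOH was the highest for 8 (14.2%) and the lowest for 0 (23.2%), and 4OHT the lowest for 15 (18.5%) and the highest for 7 (34%). Levels in 4OHT and EtOH did not overlap, EtOH above, for 19 members (16.9%), among them 7 of the 8 called, Ube2c being the exception. The reverse held for 0 members (38.4%). In both genotypes 28 members were lower with 4OHT (26.8%). The erythroid marker share was also the highest in the delta/delta EtOH library, and the part of that in these orders was not tested.

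With median-ratio scaling, 40 members were lower in delta/delta cells and 38 in delta/+ cells, and 38 in both (41.9% of all genes). At least 1.5-fold lower were 33 (20.3%) and 5 (15.3%), with medians of -0.79 and -0.28. The lower change was in delta/delta cells for 39 members (50.8%), and 31 had EtOH above 4OHT without overlap (26.4%).

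**Figure D4:**
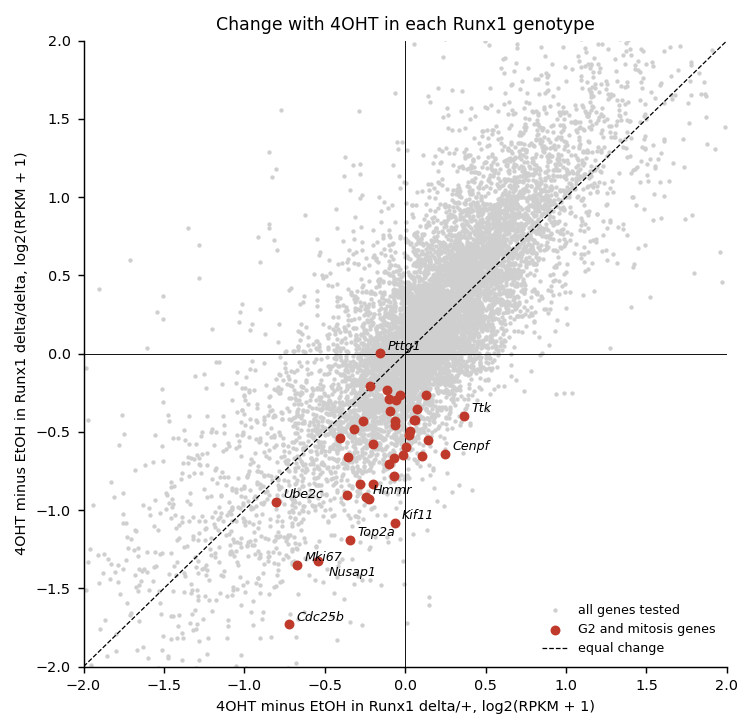
Change with 4OHT in Runx1 delta/+ (horizontal) and delta/delta cells (vertical), on the log2(RPKM + 1) scale, for the members (red) and all other tested genes (grey); 362 tested genes lie outside the axes. Of the 40 red points 38 lie under the dashed line of equal change, and Cdc25b, Mki67, Nusap1 and Ube2c lie furthest to the lower left.

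Of the 24 members with CHR letters in a promoter window 6 were called lower with 4OHT, with a median fitted change of -0.39. Of the 10 with a window but no CHR letters 2 were, with a median of -0.31. Within the genotypes the medians with and without CHR letters were close, at -0.65 and -0.62 in delta/delta and at -0.09 and -0.10 in delta/+ cells. These differences were not tested.

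Between genotypes the members moved both ways. The genotype term of the same limma fit, Runx1 delta/delta minus delta/+ over both treatments, called 3 members lower (6.91% of all genes) and 1 higher (4.68%). For a list of this size, the lower count was close to the share over all genes and the higher count below it. The number of calls thus did not set the members apart from other genes. Hmmr was at 23.6 and 12.0 RPKM in EtOH and 4OHT of delta/delta cells and 44.8 and 37.7 in delta/+ cells (-1.23 ± 0.20, adjusted p = 0.0290). Bub1 was at 10.4 and 6.55 RPKM against 17.5 in both delta/+ libraries (-0.99 ± 0.19, adjusted p = 0.0362). Cenpe was at 11.8 and 9.64 against 18.1 and 19.9 RPKM (-0.78 ± 0.16, adjusted p = 0.0421). All 3 had both delta/delta libraries below both delta/+ libraries. The higher gene was Ube2c, whose delta/delta libraries each lay above the delta/+ library of the same treatment (0.98 ± 0.12, adjusted p = 0.0204). After median-ratio scaling Hmmr and Ube2c were called (4.42% of all genes lower and 4.39% higher), and the fit corrected for GC and length again called these 2 (3.04% and 3.74%). Without the treatment term 0 members and 0% of genes were called in either direction.

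These differences moved with base composition. Among the 20 members with the lower transcript GC content, below the median of 46.4%, 16 were lower in delta/delta cells with a median of -0.34. Among the 20 with the higher GC content 17 were higher, with a median of 0.34. Spearman's rho between genotype difference and GC content was 0.73 over the 40 members and 0.39 over all tested genes, as a description of 4 libraries whose genes share depth and preparation. The labels name 2 RNA library kits without saying which library had which, and their part in this was not tested. For the fitted change with 4OHT rho with GC content was -0.01 over the members, and for the changes within delta/delta and delta/+ cells it was 0.11 and -0.24. For the delta/delta change minus the delta/+ change it was 0.37 with GC content and -0.34 with length, against 0.06 and -0.14 over all tested genes. The genotype difference also moved with transcript length, with a rho of -0.48 over the members and -0.18 over all tested genes. Of the 8 calls with 4OHT, 3 were in the lower and 5 in the higher GC group.

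**Figure D5:**
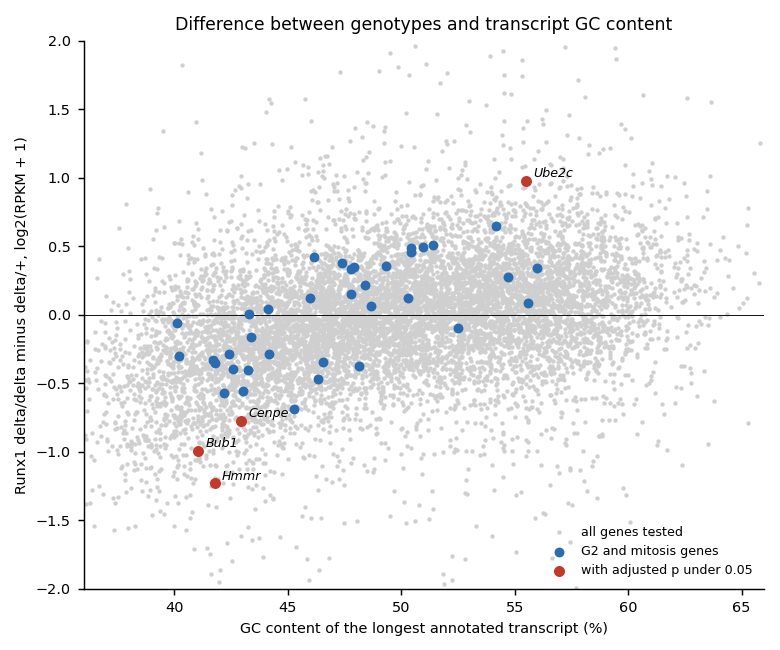
Difference between genotypes (Runx1 delta/delta minus delta/+, log2(RPKM + 1)) against the GC content of the longest annotated transcript in percent, for members not called (blue), the 4 members with an adjusted p under 0.05 (red) and all other tested genes (grey); 86 tested genes lie outside the axes. Members run from lower left to upper right, with Hmmr, Bub1 and Cenpe low and Ube2c high.

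The authors' deposited table compares 4OHT with EtOH within each genotype by Kal's Z-test, which sets 2 libraries and not 2 conditions against each other. At a corrected p under 0.05 the authors' deposited table lists 8 members lower and 0 higher in delta/delta cells, against 1.26% and 2.72% of its 23240 genes. In delta/+ cells the authors' deposited table lists 2 members lower, Ube2c and Mki67, and 0 higher, against 0.96% and 0.951%. These shares are over all 23240 genes, of which only 9595 passed the filter on low values, as all 40 members did. The shares over those 9595 genes were not counted. The 8 in the authors' deposited table are Cdc25b, Ube2c, Mki67, Top2a, Nusap1, Cdca3, Aurka and Ccna2. Of the 8 called in limma, Ndc80 and Cdca8 are not among them. The authors' deposited table gives Ube2c a fold of -1.81 in delta/delta and -1.69 in delta/+ cells (corrected p = 6.9e-10 and 0.00124), the sign marking a lower share with 4OHT.

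Of 23 transcriptional regulators of G2 and mitosis genes, 3 fell with 4OHT and 1 rose, with a median change of -0.10. For these and the other lists, the share of all tested genes that fell was 10.2% and the share that rose 22.2%. Foxm1, the forkhead factor that drives late G2 genes, was at 35.4 and 24.3 RPKM in EtOH and 4OHT of delta/delta cells and 25.9 and 24.5 in delta/+ cells, and was not called (limma adjusted p = 0.212). Mybl2, encoding B-MYB, was at 53.7, 40.3, 35.1 and 28.6 RPKM and was called after median-ratio scaling but not by default (adjusted p = 0.102, and 0.0395 after scaling). E2f2 fell most, from 172 to 36.8 RPKM in delta/delta and from 74.7 to 22.1 in delta/+ cells (-1.95 ± 0.17, adjusted p = 0.0032). Tfdp2, an E2F partner, and Nfya, a subunit of NF-Y, fell by 0.90 and 0.56 on the log2 scale, and E2f5 rose by 1.04. E2f1 was not called, and its fitted change of 0.12 turned to -0.08 with median-ratio scaling.

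Of 14 tested brakes of CDK1 and checkpoint genes, 3 fell and 0 rose. They were Gadd45a, a stress-induced inhibitor of CDK1 (-2.50, limma adjusted p = 0.0018), the checkpoint kinase gene Chek2 (-0.73) and Clspn, encoding the CHK1 adaptor claspin (-0.77). Wee1, the kinase that holds CDK1 inactive, was not called, and its change of 0.16 turned to -0.03 with median-ratio scaling. Among 16 APC/C subunits and regulators Fzr1, the activator of the interphase complex, fell (-0.59, adjusted p = 0.0378). Anapc4 rose by default (0.48, adjusted p = 0.0462) but was not called with median-ratio scaling (adjusted p = 0.172).

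Of 8 condensin genes 1 fell, Ncapg2 (-0.93), and all 8 were lower with 4OHT in both genotypes, with medians of -0.85 and -0.16. Of 16 cohesin genes 1 fell, the release factor gene Wapal (-0.50). In the comparison of genotypes 7 of the 16 cohesin genes were lower in delta/delta cells, against 6.91% of all genes. That count was 4 after median-ratio scaling (4.42%) and 1 in the fit corrected for GC and length (3.04%). Of 28 further kinetochore genes Cenpk and Pmf1 fell (-0.86 and -0.80) and 0 rose, with a median of -0.28. After median-ratio scaling 3 condensin, 3 cohesin and 8 kinetochore genes fell and 0 rose, where 13.8% of all genes fell and 12.7% rose.

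Of 25 further spindle and cytokinesis genes 0 fell and 2 rose by default, and Dlgap5, encoding a spindle assembly factor, fell after median-ratio scaling (limma adjusted p = 0.0393). Cep55, which recruits the abscission machinery to the midbody, was at 1.38 RPKM in EtOH and 9.07 in 4OHT of delta/delta cells, and at 6.94 and 18.5 in delta/+ cells. It rose, with a log2 change of 1.69 ± 0.22 (limma adjusted p = 0.0068, and 0.0139 after median-ratio scaling). Fam83d, a spindle-associated protein, was at 7.06, 11.1, 5.43 and 15.0 RPKM, with both 4OHT libraries above both EtOH libraries (0.95 ± 0.21, adjusted p = 0.0242, and 0.0641 after scaling). The list's median was still -0.23.

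Of 24 S phase genes 5 fell and 0 rose, with a median of -0.24, close to the -0.31 of the G2 and mitosis genes. Ccne1, encoding cyclin E1, was at 89.8 and 33.8 RPKM in delta/delta and 49.9 and 28.4 in delta/+ cells (-1.09, limma adjusted p = 0.0122). The ribonucleotide reductase genes Rrm1 and Rrm2 fell by 0.71 and 0.80, and Pcna, the replication clamp, by 0.57. The fifth was Cdt1, a licensing factor gene named after its value was seen. Here too the median was lower in delta/delta (-0.40) than in delta/+ cells (-0.13).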

How the data were processed

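RNA of 4 mouse libraries was analysed, from sorted cells and 1 of 2 RNA kits per the labels' protocols. The submitters' processing notes name the genome build mm9. The aligner, the annotation and whether counting used strand: not given in the sources used here. Per the file headers, the authors deposited RPKM per gene and library, and p-values with a fold of proportions (a signed score) from Kal's Z-test. All 4 per-sample columns were used.

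Members, lists and tests were chosen with earlier results of these data known. Depth was recovered from the steps between RPKM values: 118 of 454 genes with a single transcript shared the commonest library totals, with reads whole to 0.02. Differences were fitted with limma 3.58.1 in R 4.3.3 on log2(RPKM + 1), keeping genes that averaged 1 RPKM or more, with treatment and genotype as terms, a trended prior (4.37 degrees of freedom added to 1), a two-sided test and a threshold of 0.05 after Benjamini-Hochberg adjustment over 9595 genes. This scale understates changes of low genes. Genotype equals the replicate number, which the labels give, so it is also the replicate block. Deviations from the group means were shared by libraries of 1 number (correlation 0.664 over genes). The first and second components held 69.4% and 25.5% of variance, and which libraries each of them separated was not examined. Between libraries, correlations of log2 values were 0.869 to 0.964, so none was a copy.

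Alternatives were median-ratio scaling (size factors 0.908 to 1.09, shifting the median of all genes from 0.16 to -0.02), no filter, a mean of at least 5 RPKM, a pseudocount of 0.1, a constant prior, no replicate block, removal of a GC and length trend (known for 99.2% of tested genes), and leaving out each library. Values in every library are given for members called by default or with median-ratio scaling and for Mki67, Top2a, Ccnb1, Cdk1, Plk1, Aurkb, Cdc20 and Cenpa, and for others where they show a pattern. From the other lists Foxm1, Mybl2, E2f1, Wee1 and up to 4 genes with the smallest p are named. Promoter sequences came from RefSeq by symbol. Members without an entry were Ccna2, Cdc25c, Aurkb, Incenp, Kif20a and Tpx2.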

Additional observations from a re-analysis of the deposited data

Results flagged for a closer look

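For 12 members the change with 4OHT went opposite ways in Runx1 delta/delta and delta/+ cells (18.7% of all tested genes did so). The difference between the genotypes was not tested, since each genotype has 1 library per arm. Given as the change in delta/delta minus that in delta/+ on the log2(RPKM + 1) scale, it was -0.89 for Cenpf, -0.76 for Ttk, -0.76 for Anln, -0.70 for Kif23, -0.60 for Bub1, -0.54 for Kif2c, -0.52 for Tpx2, -0.48 for Ccnb1, -0.48 for Cdc20, -0.43 for Cdc25c and -0.40 for Cenpe. In these 11 the value was lower with 4OHT in delta/delta and higher in delta/+ cells. The exception was Pttg1 at 0.15, whose level in delta/delta cells hardly moved. With median-ratio scaling 38 of the 40 members were lower in both genotypes.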

How the results depend on the processing

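The limits are 1 library per genotype and arm and 1 residual degree of freedom. The direction of the members' median held throughout: it was -0.31 by default, -0.51 with median-ratio scaling, -0.44 after removal of the GC and length trend, and -0.45 to -0.19 with 1 library left out. The number of members called did not. It was 8 lower by default, 12 with median-ratio scaling, 6 with a pseudocount of 0.1, 5 at a mean of at least 5 RPKM, 4 with a constant prior, 2 without a filter, 15 with the GC and length trend removed within the replicate block, and 0 to 1 with 1 library left out, the 1 being Cdc25b without the delta/+ EtOH library. Fits without 1 library also lack the genotype term, so both choices change at once. Without the replicate block 0 members were called, and 116 of all genes were lower and 117 higher against 983 and 2130 with it. The count of members higher was 0 under every alternative. Of all genes 1221 were higher with median-ratio scaling, and with 1 library left out 3 to 137 were lower and 0 to 126 higher. Between genotypes 3 members were lower in delta/delta cells by default, 1 with median-ratio scaling, 1 with the GC and length trend removed, 0 without a filter, 0 in a fit that holds genotype alone, and 0 with any library left out, where the treatment term is dropped too. The 1 higher member was lost (0) without a filter, with genotype alone and with any library left out. Fewer libraries leave the lone sample of an arm assumed to vary like the others.

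With 1 library left out, the fitted change of 11 uncalled members turned above 0 in at least 1 of the 4 fits, which hold treatment alone: Anln -0.81 to 0.26, Bub1 -0.94 to 0.35, Bub1b -0.45 to 0.15, Ccnb1 -0.45 to 0.079, Cenpe -0.56 to 0.42, Cenpf -0.62 to 0.23, Hmmr -1.37 to 0.20, Kif23 -0.62 to 0.20, Plk1 -0.41 to 0.055, Pttg1 -0.18 to 0.023 and Ttk -0.49 to 0.45.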
